A study of Homo sapiens with 18 samples.

Results

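The genes of interest are 8 that encode parts of PML nuclear bodies or of the machinery that deposits the histone variant H3.3: PML, MORC3, DAXX, ATRX, HIRA, UBN1, CABIN1 and ASF1A. They were taken by symbol, all 8 were found among the 16472 genes of the expression table, and all 8 passed the filter on low values. PML nuclear bodies are spherical structures in the nucleus, built on the SUMO-modified scaffold protein PML, that collect resident proteins such as SP100 and DAXX. DAXX and ATRX together place H3.3 at repeats and telomeres, whereas the HIRA complex, made of HIRA, UBN1 and CABIN1 with ASF1A as histone donor, places H3.3 at active genes and on incoming viral DNA. Interferon is known to raise PML and SP100, to enlarge the bodies and to bring HIRA into them.

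RNA was sequenced from NIKS cells, an established line of spontaneously immortalized human keratinocytes, which were grown on irradiated mouse J2/3T3 fibroblasts. The 6 groups of 3 biological replicates were SP100 wild type (WT) and SP100 knockout (KO) cells, each untreated (0 h) or at 12 or 48 h of exposure to human interferon alpha 2a (25 ng/mL). The column names hold 1 line for each genotype (Vec2 for WT and KO5 for KO), so the knockout and any other difference between those lines cannot be told apart. No untreated group was analysed at the later times, so exposure to interferon and time in culture cannot be told apart either. Both interferon times were compared with the same untreated libraries. In such bulk samples, fewer cells of a type and less RNA per cell cannot be told apart.

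Levels are RPKM (read counts divided by gene length and by the library's reads), given as mean ± SD with n = 3, and changes are differences of log2(RPKM + 1) from a limma model of all 18 libraries. "Rose" and "fell" are used where the Benjamini-Hochberg adjusted p over the 13280 genes tested was under 0.05. Absolute depth is unknown. Relative depth, recovered from low values, ranged over 1.51-fold between libraries. SP100, the targeted gene, stood at 30.0 ± 2.01 RPKM in WT cells without interferon and at 15.1 ± 0.878 RPKM in KO cells, so its transcript was reduced and not absent in the knockout. Relative to WT, the KO mean was 0.505 untreated, 0.559 at 12 h and 0.469 at 48 h. All 6 basal keratinocyte markers searched were in the table, with sums of 13358 to 16348 RPKM over the libraries. The table held 2 of 7 fibroblast markers (summed to 1.40 to 3.18 RPKM), 1 of 4 melanocyte markers (0.37 to 1.57 RPKM) and 0 of 4 immune cell markers. All markers were human genes, so these sums do not measure RNA of the mouse feeder cells.

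In untreated WT cells PML and DAXX were the most abundant of the 8 transcripts per length, at 28.9 ± 0.467 and 27.9 ± 2.73 RPKM, and their libraries overlapped. UBN1 (16.3 ± 0.136 RPKM), MORC3 (15.9 ± 0.960 RPKM) and HIRA (15.1 ± 2.05 RPKM) followed, each overlapping the next. CABIN1 lay at 12.4 ± 0.557 RPKM, below HIRA without overlap. ASF1A (10.6 ± 0.958 RPKM) and ATRX (10.5 ± 0.384 RPKM) were lowest and overlapped. ATRX was the lowest of the 8 in all 6 groups, although it overlapped its neighbour in the order in each of them. In the ranking of the 13280 genes tested, PML moved between percentiles 69.8 and 89.2 over the groups, and HIRA between 55.7 and 65.8. MORC3 (percentiles 56.6 to 59.6) and ATRX (43.7 to 46.9) moved least in rank. The spread between replicates was smallest for UBN1, with a mean coefficient of variation of 2.28%, and largest for ATRX, with 10.2%.

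**Figure D1:**
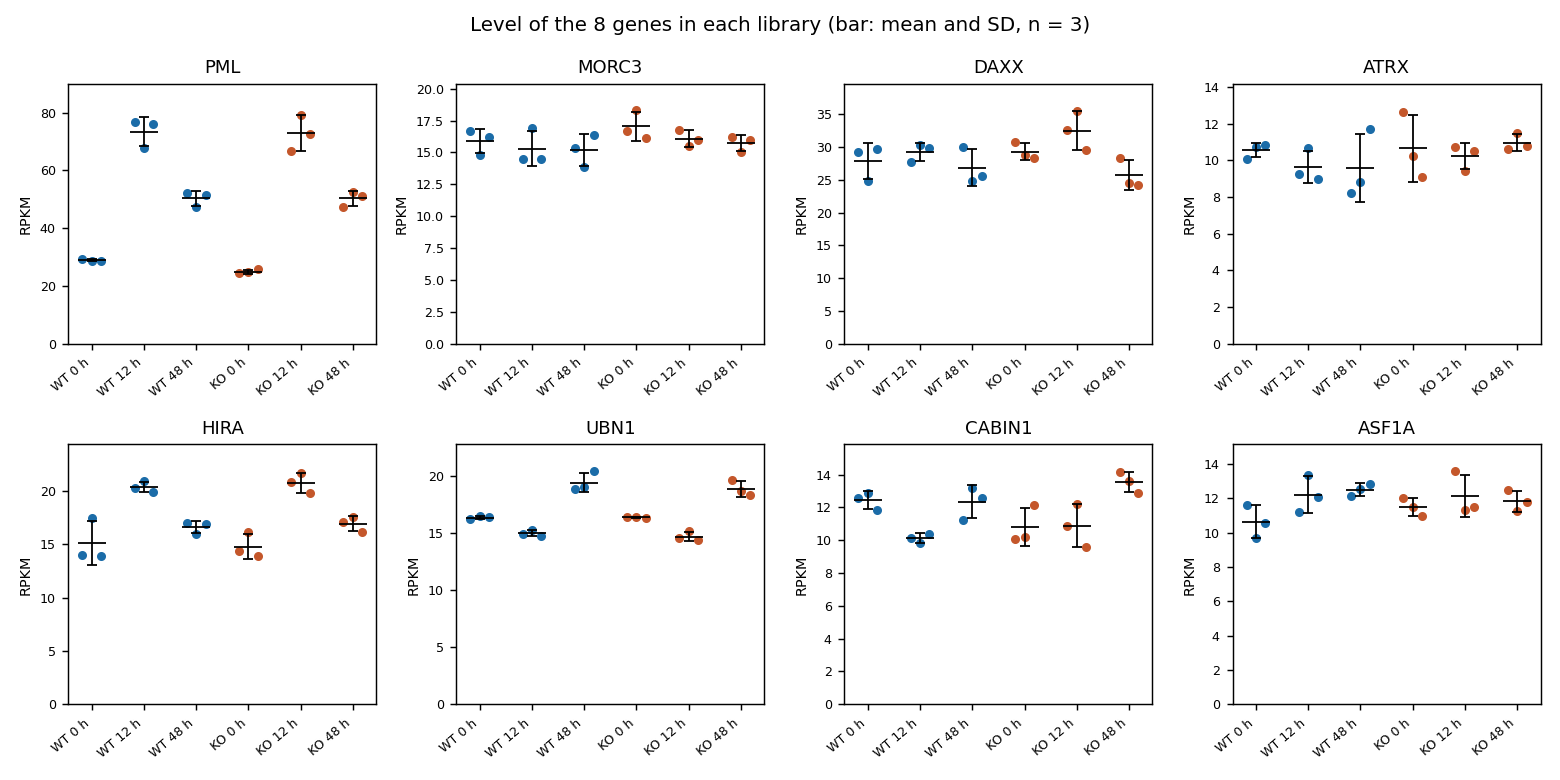
RPKM of the 8 genes in each of the 18 libraries (points; blue WT, orange KO), with the mean and SD of each group of 3 as bars. PML was highest at 12 h in both genotypes, HIRA followed the same order with smaller steps, and UBN1 was lowest at 12 h and highest at 48 h.

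PML, the scaffold of the bodies, was the one of the 8 genes with a large response to interferon. In WT its libraries held 29.4, 28.6 and 28.7 RPKM untreated, 76.7, 67.8 and 76.0 RPKM at 12 h, and 52.4, 47.4 and 51.5 RPKM at 48 h. In KO they held 24.4, 24.8 and 25.7 RPKM untreated, 66.8, 79.2 and 72.7 RPKM at 12 h, and 47.4, 52.5 and 51.0 RPKM at 48 h. No interferon library overlapped an untreated one, and no 48 h library overlapped a 12 h one, in either genotype. The mean at 12 h was 2.54 times the untreated mean in WT and 2.92 times in KO, and at 48 h it was 1.75 and 2.02 times. At 12 h PML thus rose by 1.31 in WT and by 1.51 in KO, as log2 changes (limma, SE 0.062, adjusted p = 7.75e-11 and 1.08e-11). At 48 h the rise was 0.78 and 0.98 (adjusted p = 1.48e-07 and 6.5e-09). Between 12 and 48 h PML fell by 0.53 in WT and by 0.52 in KO (adjusted p = 9.68e-06 and 8.27e-06).

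MORC3, a nuclear ATPase that enters the bodies and represses incoming viral genomes, averaged 15.9 RPKM over all libraries. It ranged from 13.9 to 18.3 RPKM over the 18 libraries, and its group means lay between 15.2 RPKM (WT at 48 h) and 17.1 RPKM (untreated KO). None of the 11 comparisons passed the threshold for MORC3. Its change at 12 h was -0.05 in WT (95% interval -0.21 to 0.10) and -0.08 in KO (-0.23 to 0.08). MORC3 shares exonic sequence with CHAF1B on the same strand. CHAF1B, a subunit of the replication-linked chaperone CAF-1, rose at 12 h by 0.17 in WT and 0.16 in KO (adjusted p = 0.0117 and 0.0158).

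DAXX, the H3.3 chaperone of the bodies, passed in 1 of 11 comparisons, and ATRX, its chromatin remodelling partner, in 0. DAXX held 32.6, 35.5 and 29.5 RPKM at 12 h in KO and 28.4, 24.6 and 24.3 RPKM at 48 h, and the 12 h libraries were all above the 48 h ones. It fell between these times by 0.33 on the log2 scale (SE 0.087, limma adjusted p = 0.00687). In WT the same step was -0.12 with an interval of -0.31 to 0.06, and the libraries overlapped. The step from 12 to 48 h was not compared between genotypes, so a call in KO alone does not show that they differed. Against untreated cells DAXX changed at 12 h by 0.07 in WT (-0.11 to 0.26) and 0.14 in KO (-0.04 to 0.33), and neither passed. With median-of-ratios scaling the change in KO was 0.24 and passed (adjusted p = 0.0288). DAXX shares exonic sequence with AL662820.1, a protein-coding gene on the same strand that the expression table does not hold.

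ATRX lay between 8.20 and 12.7 RPKM in all libraries. Its changes against untreated cells were -0.12 and -0.14 in WT at 12 and 48 h, and -0.04 and 0.05 in KO, each with an SE of 0.116. The ratio of DAXX to ATRX within a library in WT was 2.65 ± 0.303 untreated, 3.05 ± 0.245 after 12 h and 2.89 ± 0.741 after 48 h. The KO values were 2.79 ± 0.342, 3.20 ± 0.505 and 2.35 ± 0.280. The KO libraries at 12 and 48 h were the only ones of the 9 pairs of groups compared for this ratio that did not overlap. A two-sided exact permutation test gave p = 0.1 for that pair, and 0.237 after adjustment over the 45 ratio comparisons made.

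Within the HIRA complex, HIRA rose at 12 h in both genotypes, UBN1 fell in both, and CABIN1 fell in WT, although the falls were not called with median-of-ratios scaling. HIRA, the WD-repeat subunit that names the complex, held 14.0, 17.5 and 13.9 RPKM in untreated WT and 20.3, 20.9 and 19.9 RPKM at 12 h. In KO it held 14.3, 16.2 and 13.9 RPKM untreated and 20.9, 21.7 and 19.8 RPKM at 12 h. The 12 h libraries lay above all untreated ones in both genotypes, with means 1.35 and 1.40 times higher. The log2 rise of HIRA was 0.41 for WT and 0.47 for KO (SE 0.076, limma adjusted p = 0.000374 and 0.000108), and the call held in all 13 alternatives of each genotype.

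By 48 h HIRA was at 16.6 ± 0.561 RPKM in WT and 16.9 ± 0.679 RPKM in KO. It fell from 12 to 48 h by 0.28 in each genotype (limma adjusted p = 0.00947 in WT and 0.00764 in KO). Its change at 48 h against untreated cells was 0.14 in WT and 0.19 in KO and passed in neither (adjusted p = 0.27 and 0.126). Replicate 2 of untreated WT, at 17.5 RPKM, was the highest untreated library. Without it the change in WT at 48 h was 0.24 and passed (adjusted p = 0.0272). HIRA shares exonic sequence with C22orf39 on the same strand, and how shared reads were assigned is not given in the sources used here. C22orf39 fell at 12 h, from 10.0 ± 0.638 to 6.30 ± 0.306 RPKM in WT and from 10.9 ± 0.480 to 6.62 ± 0.630 RPKM in KO (log2 change -0.59 and -0.65, adjusted p = 1.54e-05 and 5.07e-06). The part of this fall in the HIRA value was not tested.

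UBN1, the ubinuclein subunit that contacts H3.3, moved in the other direction at 12 h and was highest at 48 h. In WT it held 16.2, 16.5 and 16.4 RPKM untreated, 14.9, 15.2 and 14.7 RPKM at 12 h, and 18.8, 19.0 and 20.4 RPKM at 48 h. In KO it held 16.4, 16.4 and 16.3 RPKM untreated, 14.5, 15.1 and 14.4 RPKM at 12 h, and 19.6, 18.6 and 18.3 RPKM at 48 h. The 3 times did not overlap in either genotype. UBN1 fell at 12 h by 0.12 in WT and 0.15 in KO (SE 0.043, limma adjusted p = 0.0327 and 0.00887). With median-of-ratios scaling both calls were lost, at -0.03 and -0.05 (adjusted p = 0.546 and 0.327), and the call in WT was also lost without any one of its libraries other than replicate 2 at 12 h (adjusted p = 0.0591 to 0.0937) and in a fit of its 6 libraries alone (0.0749). UBN1 rose at 48 h against untreated cells by 0.23 and 0.19 (adjusted p = 0.00146 and 0.00663), and from 12 to 48 h by 0.35 and 0.34 (1.37e-05 and 1.36e-05). The rise in KO at 48 h was not called when only its 6 libraries were fitted (adjusted p = 0.0718). UBN1 overlaps GLYR1 on the opposite strand. GLYR1 changed at 12 h by 0.13 in WT (adjusted p = 0.154) and rose by 0.25 in KO (adjusted p = 0.0105).

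CABIN1, the calcineurin-binding subunit, held 12.6, 12.9 and 11.8 RPKM in untreated WT and 10.2, 9.81 and 10.4 RPKM at 12 h, with no overlap. It fell by 0.27 (SE 0.084, limma adjusted p = 0.0149). That call was lost with median-of-ratios scaling (-0.19, adjusted p = 0.0749) and without replicate 2 of untreated WT (adjusted p = 0.0518). In KO its libraries at 0 h (10.1, 10.2 and 12.1 RPKM) and 12 h (10.8, 12.2 and 9.59 RPKM) overlapped, and the change was 0.01 with an interval of -0.17 to 0.19. At 48 h CABIN1 held 14.1, 13.6 and 12.9 RPKM in KO, above all untreated KO libraries, a rise of 0.31 (adjusted p = 0.0232). This call was lost in a fit of its 6 libraries alone (adjusted p = 0.0829) and without any one of replicates 1 or 2 of either group (0.0651 to 0.103). From 12 to 48 h CABIN1 rose in WT by 0.26 and in KO by 0.30 (adjusted p = 0.0234 and 0.00978). The rise in WT was lost with median-of-ratios scaling (0.18, adjusted p = 0.0978) and without replicate 1 or 2 at 12 h or replicate 2 or 3 at 48 h (adjusted p = 0.051 to 0.1). The rise in KO was lost without replicate 3 at 12 h (adjusted p = 0.0588).

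ASF1A, which hands H3.3-H4 dimers to the complex, was not called in any of the 11 comparisons. In WT it held 11.6, 9.72 and 10.6 RPKM untreated, 11.2, 13.4 and 12.1 RPKM at 12 h, and 12.1, 12.6 and 12.9 RPKM at 48 h. The untreated and 12 h libraries overlapped, whereas the 48 h ones lay above all untreated ones. The change in WT was 0.18 at 12 h (adjusted p = 0.0685) and 0.22 at 48 h (adjusted p = 0.0791). With median-of-ratios scaling the change at 12 h was 0.27 and passed (adjusted p = 0.0101). Without replicate 1 of untreated WT it passed at 12 h (0.24, adjusted p = 0.0314) and at 48 h (0.28, adjusted p = 0.0487), and without replicate 1 at 12 h it passed at that time (0.24, adjusted p = 0.0359). In KO the changes were 0.07 and 0.04, and neither passed. ASF1A overlaps MCM9 on the opposite strand, and MCM9 was not called in these comparisons.

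**Figure D2:**
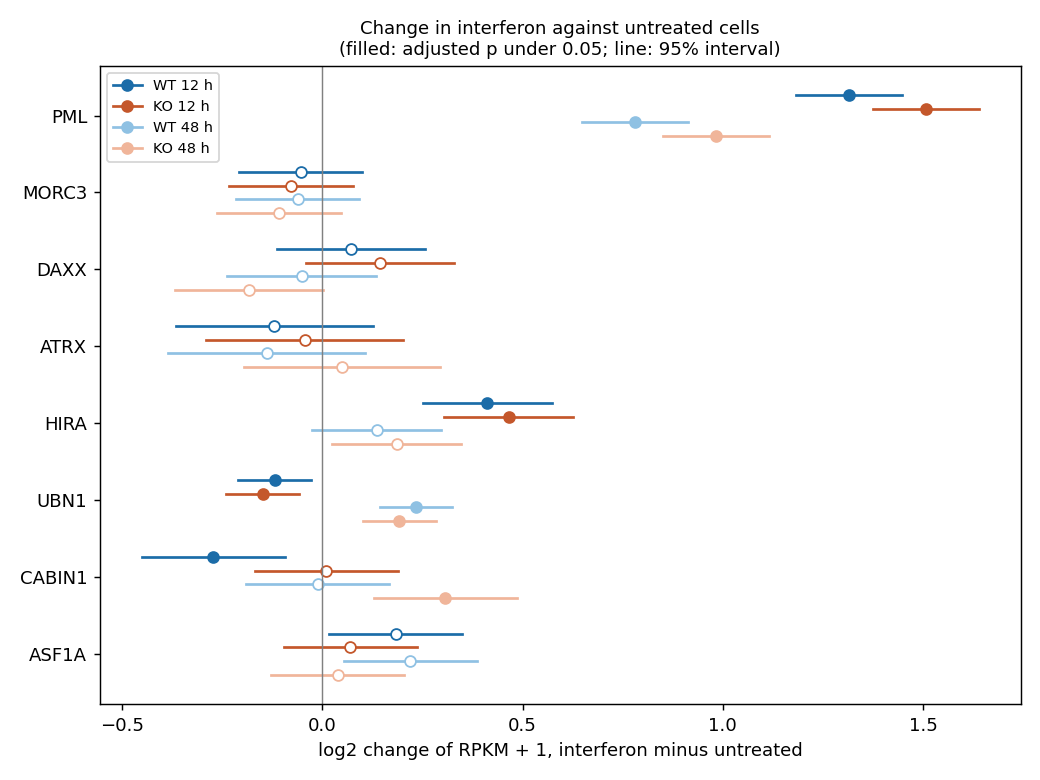
Log2 change of RPKM + 1 in interferon against untreated cells for the 8 genes, with 95% intervals from limma; filled points passed the adjusted threshold. PML stood at 0.78 to 1.51, HIRA was filled at 12 h in both genotypes, and the 12 h and 48 h points of UBN1 lay on opposite sides of 0.

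The share of all tested genes that were called sets the scale for these counts. At 12 h, 4 of the 8 genes were called in WT against 44.9% of all genes, 2 of them higher (15.1% of all genes) and 2 lower (29.8%). In KO 3 were called against 48.8%, 2 higher (16.0%) and 1 lower (32.8%). At 48 h, 2 were called in WT against 12.8% of all genes and 3 in KO against 13.3%, all of them higher (6.52% and 5.90% of all genes). From 12 to 48 h, 4 were called in WT against 35.9%, 2 higher (24.6%) and 2 lower (11.3%). In KO 5 were called against 41.7%, 2 higher (27.7%) and 3 lower (14.0%). The counts at 12 h were therefore near the background. The median change of the 8 genes at 12 h was 0.01 in WT and 0.04 in KO, and that of all genes was -0.08 in WT and -0.10 in KO. Libraries at 0 and 12 h did not overlap for 4 of the 8 genes in WT and 53.7% of all genes, and for 3 of the 8 in KO and 55.2% of all genes.

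Cell state markers also differed at 12 h, without a common direction within their lists. The 4 differentiation markers in the table (of 6 searched) summed to 116.0 to 129.0 RPKM in untreated WT and 142.3 to 152.4 RPKM at 12 h, and to 98.4 to 108.9 and 117.1 to 151.4 RPKM in KO. SPRR1B made up most of that sum (100.5 RPKM in untreated WT and 125.5 RPKM at 12 h). SPRR1B and IVL rose at 12 h in both genotypes and KRT10 fell, with a list median of 0.02 in WT and 0.06 in KO. At 48 h the sums overlapped the untreated ones in both genotypes. The 6 proliferation markers summed to 670.0 to 699.7 RPKM in untreated KO, 597.7 to 632.3 RPKM at 12 h and 607.1 to 636.3 RPKM at 48 h. In WT those sums were 638.4 to 666.0, 595.3 to 640.8 and 627.7 to 634.4 RPKM. At 12 h PCNA and MCM2 rose in both genotypes, TOP2A, CCNB1 and CDK1 fell in both, and MKI67 fell in WT. Of the basal markers, ITGA6 and COL17A1 rose and KRT5 fell at 12 h in both genotypes, and TP63 rose in KO. The 2 fibroblast markers summed to 1.48 to 1.83 RPKM in untreated KO and 2.32 to 3.18 RPKM at 12 h. In WT these sums overlapped, at 1.53 to 2.17 RPKM untreated and 1.94 to 2.25 RPKM at 12 h. The part of these markers in the changes of the 8 genes was not tested.

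The proportion of HIRA to UBN1 was also read within each library. The ratio of HIRA to UBN1 was 0.867, 1.06 and 0.848 in untreated WT, 1.36, 1.37 and 1.35 at 12 h, and 0.903, 0.842 and 0.831 at 48 h. In KO it was 0.874, 0.987 and 0.850, then 1.44, 1.43 and 1.38, then 0.871, 0.941 and 0.885. The 12 h ratios lay above all others, and those at 48 h overlapped the untreated ones. The log2 step at 12 h was 0.56 for WT and 0.65 for KO. A two-sided exact permutation test gave p = 0.1 for each, the smallest that 3 against 3 libraries can give, and 0.237 after adjustment over the 45 ratio comparisons made.

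The ratio of HIRA to CABIN1 went from 1.21 ± 0.127 to 2.01 ± 0.108 and back to 1.35 ± 0.15 in WT, and from 1.39 ± 0.226 to 1.92 ± 0.143 and 1.25 ± 0.040 in KO. The ratio of HIRA to ASF1A was 1.44 ± 0.317, 1.67 ± 0.122 and 1.33 ± 0.065 in WT, where untreated and 12 h libraries overlapped. It was 1.29 ± 0.108, 1.72 ± 0.190 and 1.43 ± 0.108 in KO, where they did not. A ratio within a library does not depend on the scaling between libraries. These pairs were chosen after the levels had been seen.

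**Figure D3:**
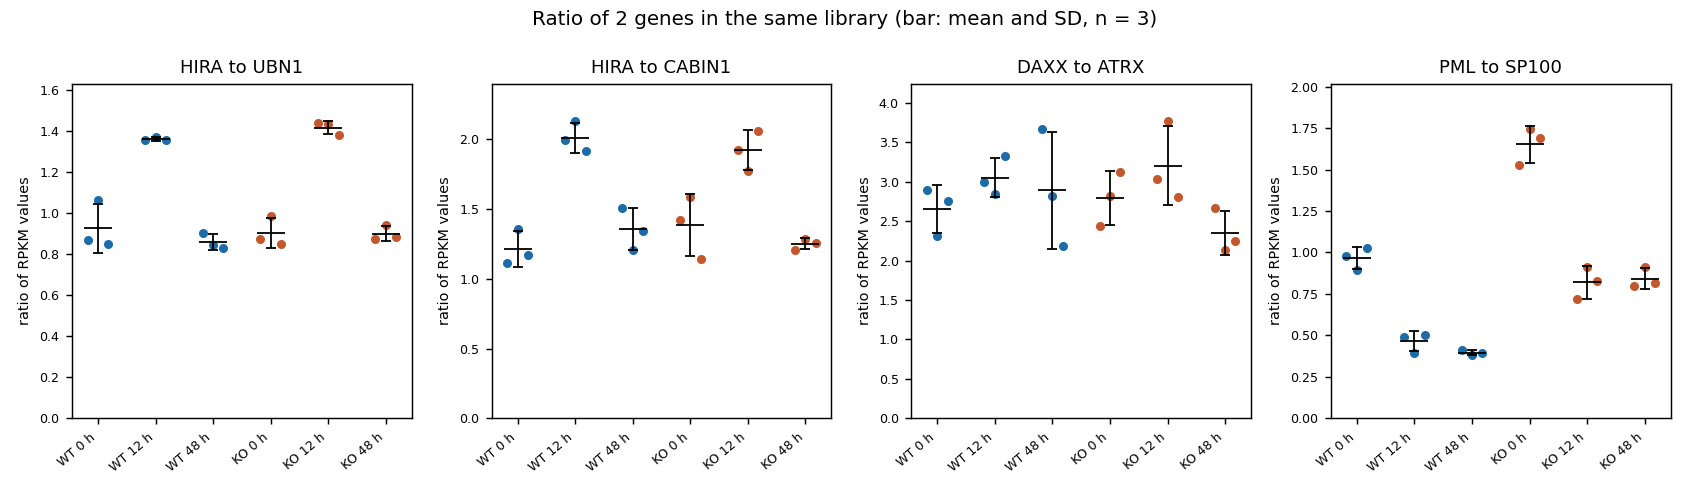
Ratios of the RPKM of a pair of genes in each library (points; blue WT, orange KO), with the mean and SD of 3 libraries. The ratios of HIRA to UBN1 and of HIRA to CABIN1 were highest at 12 h in both genotypes, and the ratio of PML to SP100 was higher in KO at every time.

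The sequences upstream of HIRA, UBN1 and CABIN1, the 3 subunits of the HIRA complex, are shown for comparison. They are the 250 bases before the start site of each RefSeq gene on GRCh38.p14. The RNA values themselves bear no mark of a start site. Capitals mark matches to CCGGAAGT (an ETS site) in HIRA and to CCAAT (the CCAAT box) in UBN1 and CABIN1, read on either strand, and the motifs were searched with the sequences in view. HIRA lies at chr22:19431734-19431983 on the minus strand, UBN1 (the first of its start sites) at chr16:4847231-4847480 on the plus strand, and CABIN1 at chr22:24011120-24011369 on the plus strand.
HIRA: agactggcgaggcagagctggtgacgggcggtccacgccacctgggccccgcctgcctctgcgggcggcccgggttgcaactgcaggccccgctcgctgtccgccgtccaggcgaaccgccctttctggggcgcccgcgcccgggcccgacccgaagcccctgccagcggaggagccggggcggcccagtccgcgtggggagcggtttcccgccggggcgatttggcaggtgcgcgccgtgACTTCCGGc
UBN1: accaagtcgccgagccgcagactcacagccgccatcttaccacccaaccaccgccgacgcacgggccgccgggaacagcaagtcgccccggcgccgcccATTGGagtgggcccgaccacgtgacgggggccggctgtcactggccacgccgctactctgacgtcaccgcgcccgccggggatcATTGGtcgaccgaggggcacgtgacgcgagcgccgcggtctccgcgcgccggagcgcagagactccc
CABIN1: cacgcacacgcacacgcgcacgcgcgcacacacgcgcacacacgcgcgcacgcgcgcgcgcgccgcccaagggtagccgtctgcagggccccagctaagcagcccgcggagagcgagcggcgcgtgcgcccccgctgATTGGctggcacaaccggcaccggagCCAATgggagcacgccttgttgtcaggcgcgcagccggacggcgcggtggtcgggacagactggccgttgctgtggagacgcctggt

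The match upstream of HIRA begins 9 bases before the start. Those of UBN1 begin 151 and 67 bases before it, and those of CABIN1 113 and 87 bases before it. The window of a second UBN1 start site, not shown, held 0 CCAAT matches, 60.0% GC and 24 CpG. Promoters were found for 5 of the 8 genes: HIRA, UBN1, CABIN1, ASF1A and MORC3. None was found for PML, DAXX or ATRX, so no motif was searched for upstream of those genes. MORC3 had a CCAAT match at 88 bases and an ETS match at 29 bases, and ASF1A had neither. Of 35116 promoters of the same length, 32.0% held CCAAT and 3.4% held CCGGAAGT. Neither the core of the interferon-stimulated response element (in 3.0% of promoters) nor TTCNNNGAA (the gamma-activated site, in 6.6%) occurred in these windows of the 5 genes. The GC content was 77.2% for HIRA, 73.2% for the UBN1 window shown and 73.6% for CABIN1, against a median of 58.0% over all promoters, and the windows held 33, 38 and 40 CpG against a median of 11.

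Loss of SP100 was compared with WT at each time, to ask whether the other body and chaperone genes depend on it. None of the 8 genes was called at 0, 12 or 48 h, where 4.89%, 3.62% and 4.19% of all genes were. At an unadjusted p under 0.05 there were 2 genes at 0 h, PML and CABIN1, and 0 at 12 and 48 h (limma), where 18.1%, 17.0% and 16.4% of all genes were under it. The median difference of the 8 genes was 0.00, 0.05 and 0.01, against 0.02, 0.01 and 0.01 for all genes.

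PML in untreated cells was the one member whose genotypes did not overlap, which held for 23.6% of all genes. The untreated KO libraries (24.4 to 25.7 RPKM) lay below the untreated WT libraries (28.6 to 29.4 RPKM), a difference of -0.20 with an interval of -0.34 to -0.07 and an adjusted p of 0.0742. Over the 13 alternatives the adjusted p was 0.0518 to 0.211, and it passed in none. At 12 h the difference was -0.01 (-0.14 to 0.12), and at 48 h 0.00 (-0.14 to 0.13), with overlapping libraries. In untreated KO, DAXX was the highest of the 8 genes, above PML without overlap, whereas in WT the pair overlapped. Among other interferon genes, IRF9, ISG15 and IFIT1 were lower in untreated KO (-0.53, -1.36 and -1.44, adjusted p = 0.0109, 2.16e-06 and 1.43e-08). MX1 was higher in KO at 12 and 48 h (0.48 and 0.44), and IFIT1 was lower in KO at 48 h (-0.31).

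For the subunits of the HIRA complex no difference passed, and the intervals give the sizes the data allow. HIRA differed between KO and WT by -0.03 (-0.19 to 0.13), 0.03 (-0.13 to 0.19) and 0.02 (-0.14 to 0.18) at 0, 12 and 48 h. UBN1 differed by 0.00 (-0.09 to 0.09), -0.03 (-0.12 to 0.06) and -0.04 (-0.13 to 0.05). CABIN1 differed by -0.19 (-0.37 to -0.01), 0.09 and 0.13, and ASF1A by 0.10, -0.01 and -0.07. For ATRX the interval at 48 h reached 0.44, the widest upper bound of the 8 genes in these comparisons, around a difference of 0.19.

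**Figure D4:**
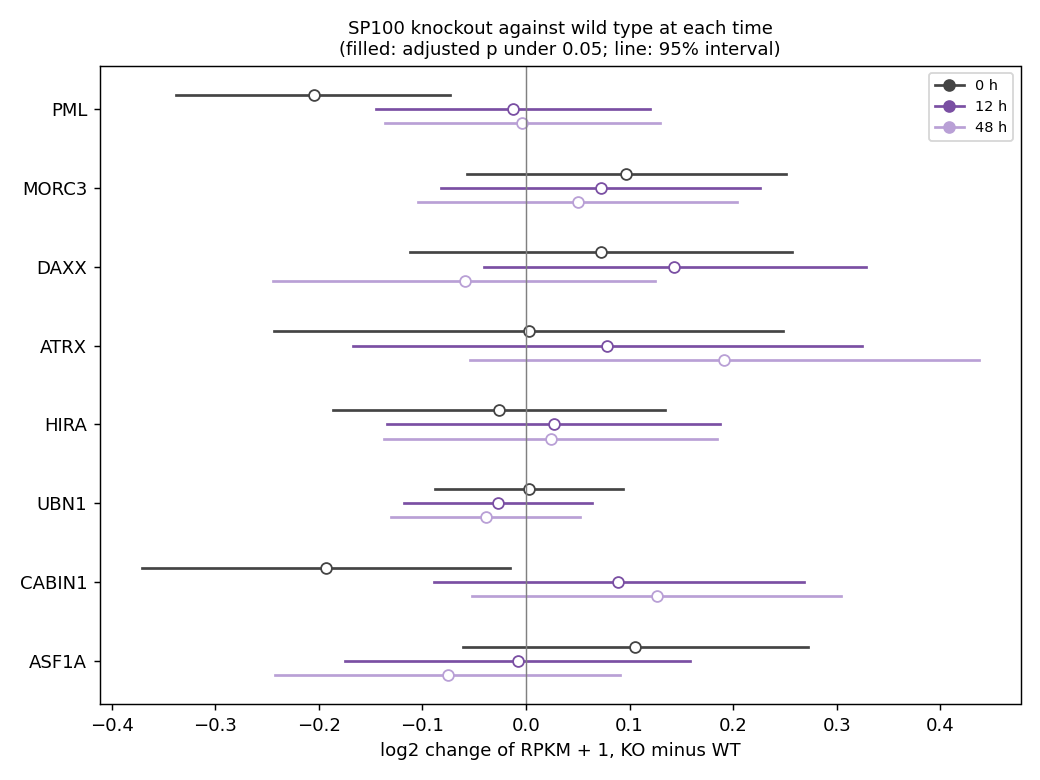
Log2 difference of RPKM + 1 between KO and WT cells for the 8 genes at 0, 12 and 48 h, with 95% intervals from limma. All points are open because none passed the adjusted threshold, and the PML point at 0 h (-0.20) lies farthest from 0.

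The response to interferon was also compared between genotypes. None of the 8 genes had a called difference of response at 12 or 48 h, where 0.0753% and 0.0828% of all genes did. At each time 2 of the 8, PML and CABIN1, had an unadjusted p under 0.05, as did 5.8% and 6.2% of all genes. For PML the estimated response was larger in KO by 0.19 at 12 h (0.01 to 0.38, adjusted p = 0.858) and 0.20 at 48 h (0.01 to 0.39, adjusted p = 0.777). Both estimates use the same untreated libraries, where PML differed between KO and WT by -0.20. At 12 and 48 h PML differed by -0.013 and -0.004. For CABIN1 the differences of response were 0.28 (0.03 to 0.53, adjusted p = 0.815) and 0.32 (0.07 to 0.57, adjusted p = 0.76). So the call for CABIN1 in WT and not in KO at 12 h does not show that the genotypes differed.

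PML and SP100, the scaffold and a resident of the same bodies, rose by unequal amounts. SP100 held 30.1, 31.9 and 27.9 RPKM in untreated WT, 155.5, 172.1 and 150.8 RPKM after 12 h and 127.1, 123.7 and 131.3 RPKM after 48 h. The KO libraries held 16.0, 14.2 and 15.2 RPKM, then 93.2, 86.5 and 87.5 RPKM, then 59.5, 57.4 and 62.4 RPKM. The ratio of PML to SP100 in WT was 0.967 ± 0.067 untreated, 0.464 ± 0.061 after 12 h and 0.396 ± 0.015 after 48 h. The KO values were 1.65 ± 0.113, 0.82 ± 0.10 and 0.843 ± 0.062. At each time all KO ratios lay above all WT ratios (log2 difference 0.77, 0.83 and 1.09, exact permutation p = 0.1 each, adjusted 0.237). SP100 itself is the targeted gene.

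Closeness to PML in pattern was the root mean square difference in log2 change from untreated WT, over all 6 groups with untreated WT as 0. The 5 tested genes that followed PML most closely were NT5E (0.083), CHROMR (0.088), CD68 (0.097), NAPA (0.121) and APOL2 (0.127). NT5E changed by 1.23 and 0.79 at 12 and 48 h in WT. CD68 changed by 1.39 and 0.94 there and stood at -0.35 in untreated KO.

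Other genes of the same structures, or related to the genes above, were read from lists. Of 11 further body genes and relatives of body genes (MORC2 and MORC4 were listed as relatives of MORC3), 10 were tested. At 12 h 4 of them rose and 3 fell in each genotype. SP110, a relative of SP100, went from 7.61 ± 0.676 to 88.9 ± 2.31 RPKM in WT (log2 change 3.39) and ISG20, an interferon-induced exonuclease, from 3.10 ± 0.864 to 55.8 ± 3.3 RPKM (3.81). SP140L rose by 1.52 and MORC2, a chromatin-compacting relative of MORC3, by 0.39. HIPK2, TOPORS and MORC4 fell by 0.31, 0.21 and 0.35. SP110 was the one called between genotypes, at 48 h, where KO was lower (52.9 ± 3.66 against 65.2 ± 2.52 RPKM, -0.30, adjusted p = 0.0161). The median of the 10 genes at 12 h was 0.12 in WT and 0.17 in KO.

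Among 18 genes that attach or remove SUMO, at 12 h 3 rose and 4 fell in WT cells, while 2 rose and 5 fell in KO cells, with medians of -0.04 and -0.10. SENP7 and SENP6, proteases that trim SUMO chains, fell in WT by 0.41 and 0.24, and the SUMO ligase PIAS3 by 0.25. RNF4, a ubiquitin ligase that recognizes SUMO chains on PML, rose by 0.30. Between genotypes PIAS3 was lower in untreated KO (-0.20, adjusted p = 0.0309).

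Of 12 other H3.3 and histone chaperone genes, at 12 h 2 rose and 4 fell in WT cells, while 4 rose and 5 fell in KO cells. The medians were -0.01 in WT and -0.02 in KO. The genes for H3.3 itself moved apart: H3-3B rose from 526.0 ± 6.12 to 672.6 ± 17.6 RPKM in WT (0.35, adjusted p = 5.23e-06), and H3-3A fell from 164.0 ± 6.71 to 133.6 ± 11.6 RPKM (-0.30, adjusted p = 0.000477). In KO the same pair changed by 0.35 and -0.38 (adjusted p = 5.03e-06 and 4.01e-05). RBBP4 and NASP, carriers of histones H3 and H4, fell in WT by 0.28 and 0.20. None of the 12 genes was called between genotypes at any time by limma. The 8 interferon signalling genes all rose in all 4 comparisons, with medians of 4.80 and 4.40 at 12 and 48 h in WT and 5.06 and 4.51 in KO. MX1, the largest, went from 0.32 ± 0.095 to 580.2 ± 7.18 RPKM at 12 h in WT, and IFIT1, ISG15 and OAS1 rose there by 6.89, 5.93 and 6.33.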

How the data were processed

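The authors deposited 1 table of RPKM values to 2 decimals, for 16472 Ensembl IDs in 18 libraries. Libraries were made from total RNA with a stranded mRNA kit, per the labels' protocols. The submitters' processing notes name cutadapt, STAR 2.6.1, RSEM 1.3.0, limma 3.50.3 and the build hg19, without their roles. The annotation, the gene filter, the reads in the RPKM total and the use of strand in counting are not given in the sources used here, so genes that overlap in GENCODE models (release 29) are uncertain. Those models and RefSeq promoters (GRCh38.p14) come from another build, and no hg19 coordinates are given. Symbols were found for 15666 of the IDs.

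Values were transformed to log2(RPKM + 1), which understates the change of low genes. Genes with at least 1 RPKM in at least 3 libraries (13280) entered a cell-means model of the 6 groups in limma 3.58.1 (R 4.3.3), with a mean trend in the variances. P-values were adjusted by Benjamini-Hochberg within each of 11 comparisons, and 0.05 was the threshold. The model was also run on simulated data with independent noise, and no result given here rests on that run. Ratios of RPKM were compared by exact permutation, two-sided. Across genes, Pearson correlations between replicates were 0.985 to 0.989. Relative depth came from 772 low genes, where 81.0% of library pairs lay within 3% of the fit, and ranged from 0.842 to 1.271. No counting interval can be given.

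All 8 genes are named. From each added list, the called genes that changed most in WT at 12 h, at most 4, are named, plus those called between genotypes, except that some list genes are not reported here. The genes nearest in pattern are named for a member with a change of at least 0.5. Other names follow from small counts or from overlap with a member, and were chosen after their values were seen. The members and lists were chosen with earlier results of these data known. Alternatives were a pseudocount of 0.1, no filter, a mean of at least 5 RPKM, median-of-ratios scaling, no variance trend, the replicate number as a block, the libraries of a comparison alone, and each library left out.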

Additional observations from a re-analysis of the deposited data

Results flagged for a closer look

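None of the 8 genes met a criterion for a closer look. Among the interferon signalling genes set beside them, 3 had a response to interferon that differed between genotypes in the limma test of the difference itself. ISG15 rose more in KO by 1.01 on the log2 scale at 12 h (adjusted p = 0.0361) and by 1.18 at 48 h (adjusted p = 0.00579), from an untreated level of 5.64 ± 1.16 RPKM in KO against 15.9 ± 2.46 RPKM in WT. IFIT1 rose more in KO by 1.45 at 12 h (adjusted p = 1.34e-05) and 1.13 at 48 h (adjusted p = 0.000215), from 0.95 ± 0.231 RPKM in KO against 4.32 ± 0.723 RPKM in WT. The level of ISG15 at 12 h was 775.52 to 825.75 RPKM in KO, below the 949.85 to 1118.12 RPKM in WT. That of IFIT1 at 12 h was 621.49 to 634.53 RPKM in KO and 613.06 to 649.66 RPKM in WT. MX1 rose more in KO by 0.58 at 12 h (adjusted p = 0.000311) and 0.54 at 48 h (adjusted p = 0.00118). For MX1 the untreated levels were 0.22 ± 0.055 and 0.32 ± 0.095 RPKM in KO and WT, and the levels at 12 h were 807.8 ± 3.97 and 580.2 ± 7.18 RPKM. With 3 libraries in each group, no library was tested for standing apart.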

How the results depend on the processing

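The number of the 8 genes called in WT at 12 h, 4 in the fit of all libraries, was 2 to 4 with each library left out in turn, the lowest without replicate 2 of untreated WT. The number called in KO at 48 h, 3 with all libraries, was 1 in a fit of the 6 libraries of that comparison alone, which has fewer residual degrees of freedom. The counts of members under every other alternative stayed within 1.5 times those reported, and no change of a called gene turned its sign. PML kept its calls against untreated cells, and PML and HIRA their fall from 12 to 48 h, in all alternatives. Over single genes, 10 calls of UBN1 and 13 of CABIN1 were lost over the alternatives, and 4 were gained for ASF1A, 1 for DAXX and 1 for HIRA. Replicate numbers showed no strong pairing of the samples. Deviations from the group mean in same-numbered libraries of 2 groups correlated at -0.097 to 0.157 over the genes tested. Pairs with unlike numbers were not compared. With the replicate block, 3 genes were called in WT at 12 h in place of 4 (UBN1, adjusted p = 0.0501), and the other member counts were the same. Median-of-ratios scaling took the median change of all genes at 12 h to -0.007 in WT (from -0.085) and to -0.004 in KO (from -0.095). It moved the share of higher genes among those called at 12 h to 50.6% in WT and 50.2% in KO (33.6% and 32.7% without it), for 48 h against 12 h to 47.4% and 48.0% (68.5% and 66.4%), and for KO against WT at 0 h to 46.1% (57.7%). In fits of the libraries of a comparison alone, the genes called for KO against WT went from 650 to 306 at 0 h, from 481 to 213 at 12 h and from 556 to 250 at 48 h. The same fits gave 945 in place of 1770 for KO at 48 h, and 6 and 3 in place of 10 and 11 for the differences of response at 12 and 48 h. With 1 library left out, KO at 48 h fell to 1159 genes (without replicate 1 of untreated KO). The count for KO against WT fell as far as 390 at 0 h (without replicate 2 of untreated WT) and 311 at 12 h (without replicate 1 of WT at 12 h). Those for the differences of response fell to 6 (without replicate 1 or 2 of untreated KO or replicate 3 of KO at 12 h) and 7 (without replicate 2 of WT at 48 h). No ratio moved by more than its replicate spread when a pseudocount of 1 was added or 1 library was left out, alternatives chosen after the data were seen. Absolute depth is unknown, so the precision of the lower genes cannot be set apart from replicate spread.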
